A study of Mus musculus with 12 samples.

Results

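The cytosolic ribosomal protein genes were taken from the array by name. A gene was a member when its symbol began with Rpl or Rps followed by a digit, with the Rps6k kinases and symbols marked as pseudogenes left out. This gave 82 genes of 29411 gene names on the array, 49 named for the large subunit and 33 for the small subunit, measured by 127 probes. Rps19bp1, also caught this way, encodes a protein that binds Rps19 and is not itself part of the ribosome. The samples were resting B cells from the spleens of BALB/c mice, labelled female and 6 weeks old, which were cultured for 4 h and read on 12 single-colour arrays, 2 for each of 6 conditions. Cells were left unstimulated, or received the TLR2 ligand Pam2CSK4, anti-CD86 antibody, anti-CD86 with Pam2CSK4 (TLR2.CD86), anti-CD40 antibody, or anti-CD40 with Pam2CSK4. Resting B cells had been separated by removal of CD43-bearing cells. The study calls the samples biological replicates, and the labels tie no sample to a single mouse. The arrays came from 2 slides. Slide 1 held 8 arrays, which were both unstimulated, both anti-CD40 with Pam2CSK4, and replicate 1 of the other conditions, and slide 2 held the 4 remaining replicate 2 arrays.

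The cytosolic ribosome joins a small subunit, which reads the message, to a large subunit, which forms the peptide bond. Each ribosomal protein enters the particle in a fixed copy number, so that cells make the proteins together. Their messages are among the most abundant in any growing cell. They start with a pyrimidine-rich stretch, the 5′ terminal oligopyrimidine (TOP) tract, through which the kinase mTOR and the RNA-binding protein Larp1 adjust translation. Activated B cells grow before they divide, and new ribosome assembly in the nucleolus, driven in part by Myc, is a known part of that growth.

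The annotated starts of several members are shown for their pyrimidine runs. The stretches of 30 bases below are from RefSeq on build GRCm38.p6, on the strand of the gene, and capitals mark the longest run of at least 6 bases of C or T that touched the 10 bases on either side of the annotated start.
Rpl27a: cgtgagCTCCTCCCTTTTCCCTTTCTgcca
Rps15a: caCTCTCTTTCTgccatcttccctcgccgg
Rpl14: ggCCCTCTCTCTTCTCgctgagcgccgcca
Rpl4: agTCTTTCCTTTTCCTgtgggagcagccgg
Rpl7l1: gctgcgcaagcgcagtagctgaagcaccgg
The Rpl27a stretch lies at chr7:109519185-109519214 on the plus strand, with its annotated start at base 11, inside a run of 20 pyrimidines. The Rpl14 stretch at chr9:120571507-120571536 had its start at base 11 too, inside a run of 14. In the other 2 stretches with capitals the marked run ended before the annotated start. The Rps15a stretch lies at chr7:118116135-118116164 on the minus strand, with a marked run of 10 that ended at base 12 and the start at base 18, which lay in a shorter run of 9, left in lower case. The Rpl4 stretch at chr9:64173367-64173396 held a run of 14 that ended at base 16, and its start was at base 21, in no run. Rpl7l1, a Rpl7 paralog, held no run of 6 or more near its start at base 11, in its window at chr17:46782637-46782666. Among the 60 member genes with an annotated start in the table, 38 of 72 starts (52.8%) held such a run, against 24 of 72 starts (33.3%) of mitochondrial ribosomal protein genes and 9592 of 32851 starts (29.2%) of all genes. A run that held the start base itself was found at 18 (25%), 2 (2.78%) and 2381 (7.25%) of these starts. This match is of letters alone and says nothing on whether a start was used in these cells.

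Most members were brighter than the scanner could read. The brightest probe of 63 of the 82 genes (76.8%) was marked saturated by the scanner software on at least 1 array, and for 54 genes it was saturated on all 12. Over all gene names the share was 3.11%, or 914 genes, and it was 0% for the 75 mitochondrial ribosomal proteins. The saturated set held 35 large subunit and 28 small subunit names. Among them were Rpl5 and Rpl11, which carry the 5S ribosomal RNA, Rps27a, which is made as a fusion to ubiquitin, and Rpl13a, often used as a reference gene, all saturated on all 12 arrays. Rps6, the substrate of the S6 kinases, was saturated on 2 arrays, Rpl3 on 1 and the Rpl22 paralog Rpl22l1 on 5. The ribosomal proteins listed under other names fared alike, since all 6, Rplp0, Rplp1 and Rpsa among them, were saturated on some array.

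A saturated probe carried the scale of its array and not a level of its own. Over the 54 genes saturated on all arrays, the median scanned signal was between 15.98 and 16.01 on the log2 scale on the 12 arrays, a range of 0.03. The array's 75th percentile, to which every signal is set here, ranged over 0.74 on the same scale. After this scaling the median of the 54 genes ran from 7.39 on anti-CD86 replicate 2 to 8.11 on anti-CD40 with Pam2CSK4 replicate 2, and mirrored the percentile (Pearson's r = -0.999 over 12 arrays, a description of points that share that percentile). The arrays of anti-CD40 with Pam2CSK4 had the lowest percentiles, 0.38 below the unstimulated arrays on average, and the relative signal of the 54 genes was 0.38 higher there while their scanned signal differed by -0.0024. No fold change is given for these genes, and they are left out of the counts below. On anti-CD86 replicate 2 the scanned signal of the 54 genes spanned only 64752 to 65457, against 60018 to 84250 on anti-CD40 with Pam2CSK4 replicate 2.

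**Figure D1:**
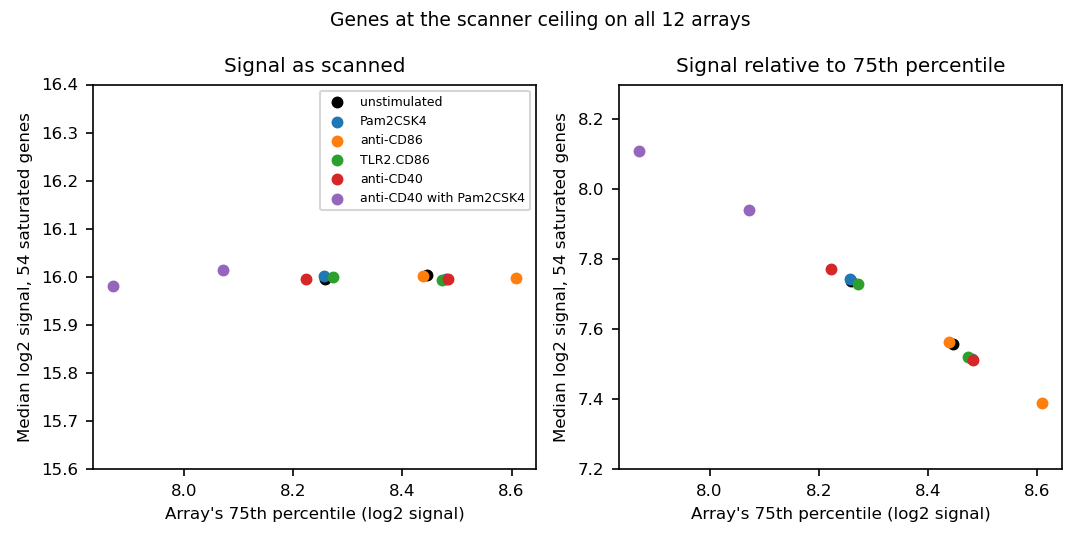
Median log2 signal of the 54 genes saturated on all 12 arrays against the 75th percentile of each array in log2 units, as scanned (left) and after subtraction of that percentile (right), with 1 point per array coloured by condition. The scanned medians lie within 0.03 of each other, and the relative medians spread over 0.72 in mirror image of the percentile.

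This left 16 genes whose brightest probe was below saturation on all arrays and bright enough to test, and 3 genes too dim to test. A further 12 saturated genes had a dimmer second probe that could be tested. The 16 genes were Rpl10, Rpl10a, Rpl36al, Rpl24, Rps15, Rpl29, Rpl4, Rps27l, Rpl27a, Rps19bp1, Rps19, Rpl7l1, Rpl31, Rpl21, Rpl14 and Rps4y2. The remaining 51 genes had no tested probe that stayed below saturation on all 12 arrays. The array is bulk RNA, so fewer cells of a type and less RNA per cell cannot be told apart.

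For the B cell label, all 10 B cell markers, Ms4a1 and Cd79b among them, were well above background on all 12 arrays, and 3 of them, Cd79b, Blnk and Cd74, were saturated on all 12. The other 7 had a summed relative signal (signal over the 75th percentile, not in log units) of 151 to 230. This sum was 168 and 169 in unstimulated cells, 151 and 176 with Pam2CSK4, and 153 and 170 with anti-CD86. It was 165 and 189 in TLR2.CD86, 187 and 230 with anti-CD40, and 220 and 230 with anti-CD40 and Pam2CSK4. Of the 6 myeloid markers S100a9 was saturated on all 12 arrays, and the sum of the other 5, most of it S100a8, was 138 and 139 in unstimulated cells and 82.6 to 115 on the 10 stimulated arrays. The 7 T cell markers summed to 33.6 and 34.3 in unstimulated cells and to 22.3 to 31.7 on the stimulated arrays, and the 5 NK cell markers to at least 15.3 in unstimulated cells and 8.63 to 13.3 on the stimulated arrays. The myeloid, T and NK cell sums were lower on every stimulated array than in unstimulated cells. The sum of the 4 red cell markers went both ways, from 84.8 and 85.1 in unstimulated cells. It was 58.4 and 73.4 with anti-CD86, 79.7 and 106.2 in TLR2.CD86, and 102.8 and 103.2 with anti-CD40 and Pam2CSK4. The 4 liver markers, of which Ttr was not well above background on any array, summed to 7.19 and 7.40 in unstimulated cells, to 3.52 to 5.41 with Pam2CSK4, anti-CD86, TLR2.CD86 or anti-CD40, and to 0.244 and 0.395 with anti-CD40 and Pam2CSK4. The part of these other cells in the values below was not tested. Between 46.6% and 60.6% of probes were well above background on an array, the highest on anti-CD40 replicate 2. Slide was a large source of spread among the members. With slide added to the fit, replicate 2 arrays on slide 2 were lower than replicate 1 arrays for 15 of the 16 genes, 11 of them (68.8%) past the test. By that test 39.3% of all probes were lower, as were 49.6% of the 15841 genes with an unsaturated brightest probe. The exception among the 16 genes was Rpl21, 1.03 higher on slide 2. Each comparison is therefore given both over the 12 arrays and with slide as a block. No unstimulated array lay on slide 2.

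The probes that the next results turn on are given here as 60-base sequences from the scanner files, since their identity bears on what they measured.
Rpl27a: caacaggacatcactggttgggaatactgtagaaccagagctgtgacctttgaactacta
Rps15a, saturated probe: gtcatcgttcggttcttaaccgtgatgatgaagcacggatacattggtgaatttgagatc
Rps15a, second probe: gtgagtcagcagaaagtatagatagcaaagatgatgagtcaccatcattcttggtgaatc
Rpl21, brighter probe: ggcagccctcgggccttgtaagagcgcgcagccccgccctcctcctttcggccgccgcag
Rpl21, dimmer probe: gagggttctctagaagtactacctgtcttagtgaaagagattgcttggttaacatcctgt
Rpl12, second probe: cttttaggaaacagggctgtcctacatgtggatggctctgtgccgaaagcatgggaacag
Rps27l: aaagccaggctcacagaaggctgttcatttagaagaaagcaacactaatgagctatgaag
Rpl7l1: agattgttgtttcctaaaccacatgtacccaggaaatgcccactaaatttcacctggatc
Rps4y2: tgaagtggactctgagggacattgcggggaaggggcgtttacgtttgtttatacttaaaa
Of the 127 member probes, 116 carried an accession that RefSeq pairs with the same symbol, 5 with another symbol and 6 with none. The second probe of Rpl12 carries the accession of Snora65, a small nucleolar RNA, so it is left out as a measure of Rpl12 and 11 second probes remain. The accession of Rps4y2 is that of Rps4l, an Rps4x relative, and the 3 probes of Rps3a are those of Rps3a1. The brighter Rpl21 probe carries a predicted accession that the table does not hold, and is 75% G or C, a content higher than that of 99.9% of the probes tested.

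Rpl27a, a large subunit protein, gave the only call over the 12 arrays among the 16 genes, each read by its brightest probe. On the log2 scale, set against the 75th percentile, its level was 5.47 and 5.50 in unstimulated cells, and 4.95 and 4.66 in TLR2.CD86. It was 5.11 and 4.92 with Pam2CSK4, 4.96 and 4.80 with anti-CD86, 5.15 and 4.84 with anti-CD40, and 5.19 and 5.20 with anti-CD40 and Pam2CSK4. Both unstimulated arrays were above all 10 stimulated arrays, with no overlap. The gene lies on chromosome 7 at 109519195-109522369 (GRCm38.p6). In TLR2.CD86 against unstimulated cells Rpl27a fell by 0.68 on the log2 scale, to 0.624 of its unstimulated level (SE 0.15, limma adjusted p = 0.033). Over all 31596 probes, 10.6% were called in that comparison, 3.39% as higher and 7.24% as lower, and 1 of 16 members (6.25%) was called. Rpl27a was, with slide as a block, lower in each of the 5 comparisons, by 0.35 with Pam2CSK4 (adjusted p = 0.022), 0.49 with anti-CD86 (0.0034), 0.56 with TLR2.CD86 (0.0015), 0.38 with anti-CD40 (0.0041) and 0.29 with anti-CD40 and Pam2CSK4 (0.0067). These comparisons share the unstimulated arrays. The TLR2.CD86 call was lost under median scaling, with no filter on dim probes, and on leaving out any of the 4 arrays, and its adjusted p ran from 0.0015 to 0.53 over the alternatives.

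**Figure D2:**
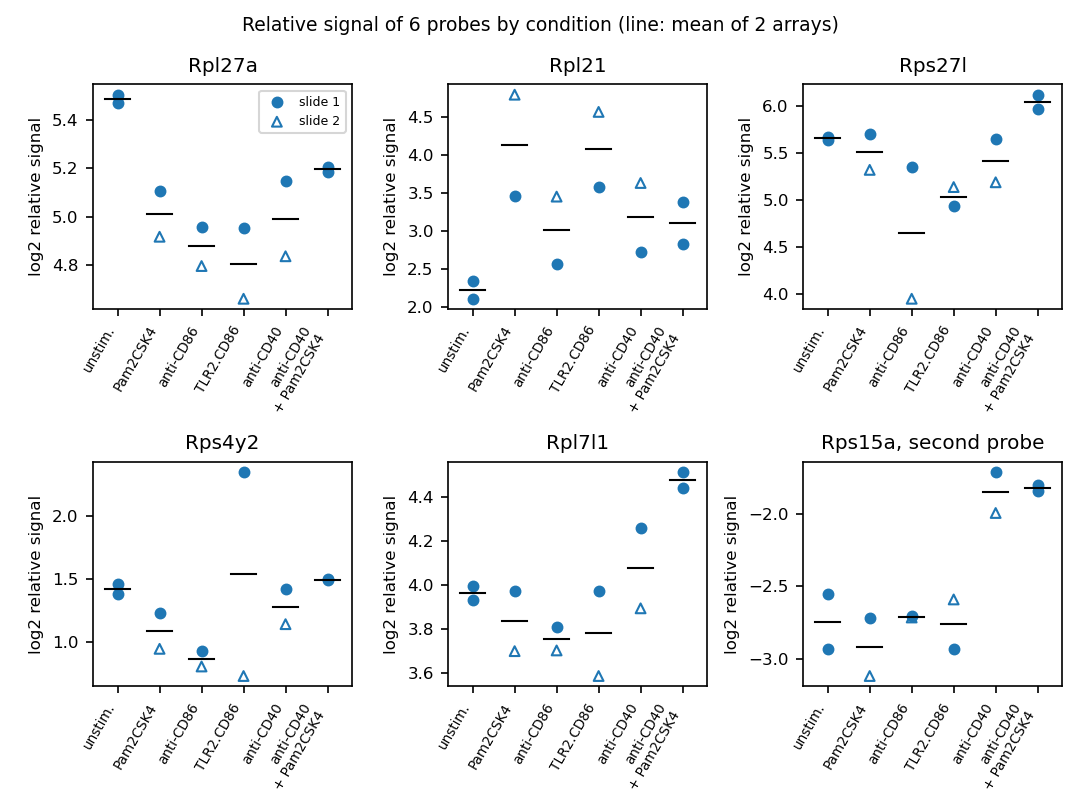
Log2 relative signal (75th percentile of each array set to zero) of 6 probes in the 6 conditions, with filled circles for slide 1, open triangles for slide 2 and a line at the mean of the 2 arrays of each condition. Rpl27a is highest in both unstimulated arrays, Rps15a (second probe) is higher in the 4 arrays with anti-CD40, and Rpl21 is higher on slide 2 than on slide 1 in each of the 4 conditions that hold both.

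In TLR2.CD86 the other members near the lower end were Rps27l (-0.62), Rpl14 (-0.57), Rpl29 (-0.52), Rps19 (-0.39) and Rpl31 (-0.37), and none of these brightest probes passed the test over the 12 arrays. Rpl14, Rpl29 and Rpl31 are large subunit proteins, and Rps19 is a small subunit protein whose loss causes Diamond-Blackfan anaemia. Rpl14 was 3.30 and 3.36 in unstimulated cells and 2.89 and 2.63 in TLR2.CD86, without overlap. Rpl29 had 3 further unsaturated probes, which differed by -0.27, -0.38 and -0.20. The probe at -0.38 read 4.51 and 4.57 in unstimulated cells and 4.14 and 4.19 in TLR2.CD86 and was called over the 12 arrays (limma adjusted p = 0.044; 0.0023 to 0.57 over the alternatives). That call was lost under median and quantile scaling, with normexp correction, with no filter on dim probes and on leaving out any of the 4 arrays. With slide as a block 6 of the 16 genes (37.5%) were called, against 34.9% of all probes (14.5% higher and 20.4% lower), namely Rpl27a, Rpl29, Rpl14, Rps19 and Rpl31 as lower and Rpl21 as higher. The share of members called was thus close to that of all probes. The median difference of the 16 genes was -0.21 over the 12 arrays and -0.08 with slide as a block, and that of all probes tested was -0.03 and -0.01. Over the 15841 genes with an unsaturated brightest probe it was -0.19 and -0.13, close to the members' value over the 12 arrays and below it with slide. The members' median was -0.03 under quantile scaling, -0.49 under median scaling, -0.04 without TLR2.CD86 replicate 2 and -0.41 without replicate 1. Rpl36al, Rpl10 and Rpl4 differed from unstimulated by less than 0.06 in either direction and were not called.

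With anti-CD86 alone, 0 of the 16 genes were called by limma over the 12 arrays, with 4 at an unadjusted p under 0.05, against 2.14% of all probes (0.946% higher and 1.19% lower). In the fit with slide 4 (25%) were called, against 28.3%. The 4 genes were Rpl27a, Rpl14 (-0.42), Rpl31 (-0.36) and Rpl29 (-0.28), all lower, as were 15.5% of all probes. The lowest value over the 12 arrays belonged to Rps27l, a paralog of Rps27 that is induced by p53. Rps27l was 5.67 and 5.64 in unstimulated cells and 5.35 and 3.95 with anti-CD86. The difference of -1.0 rested on replicate 2, was -0.30 on slide 1, and was called in neither fit. With Pam2CSK4 alone, 0 of 16 genes were called, with 2 at an unadjusted p under 0.05, against 0.136% of all probes. In the fit with slide 2 (12.5%) were called against 10.8%, Rpl27a as lower (6.15% of all probes) and Rpl21 as higher (4.66%). In anti-CD86 15 of the 16 genes had values below zero, in Pam2CSK4 12, and in TLR2.CD86 13 (93.8%, 75% and 81.3%), and these comparisons share the unstimulated arrays. Over the 15841 genes the shares below zero were 64.1%, 69.6% and 66.0%. These counts and shares are over the 12 arrays. With slide as a block 13, 8 and 11 of the 16 genes were below zero in the same order (81.3%, 50% and 68.8%). The shares of all probes below zero in that fit were 55.9%, 55.1% and 50.6%.

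With anti-CD40, 0 of the 16 genes were called over the 12 arrays, with 3 at an unadjusted p under 0.05, against 16.7% of all probes (6.15% higher and 10.6% lower). The fit with slide called 6 (37.5%), against 37.1% (15.7% higher and 21.4% lower). The 5 lower ones were Rpl27a, Rpl31 (-0.32), Rpl10a (-0.27), Rps15 (-0.23) and Rpl29 (-0.21), and Rps19bp1 was higher (0.26; -0.0043 over the 12 arrays). With anti-CD40 and Pam2CSK4 together, 0 genes were called over the 12 arrays, with 1 at an unadjusted p under 0.05, against 18.2% (8.52% higher and 9.65% lower). With slide as a block 8 (50%) were called, against 47.4% (23.7% in each direction). Here 5 were higher and 3 lower. Higher were Rpl21 (0.88), Rps19bp1 (0.53), Rpl7l1 (0.51), Rpl36al (0.29) and Rps15 (0.18), and lower were Rpl27a (-0.29), Rpl31 (-0.28) and Rpl29 (-0.20). Rps27l, at 5.97 and 6.12 against 5.67 and 5.64 in unstimulated cells, was also higher and was called in neither fit. Both arrays of this condition lie on slide 1 with the unstimulated arrays, so these differences were the same in both fits, and what differed was the spread they were tested against. The median difference of the 16 genes was 0.17, whereas that of all probes was 0.01 and that of the 15841 genes -0.11. These 2 arrays also had the lowest 75th percentiles. The median of the 16 genes was 0.06 under median scaling (-0.10 for all probes), 0.18 under quantile scaling (-0.01) and 0.11 with normexp correction (0.07).

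**Figure D3:**
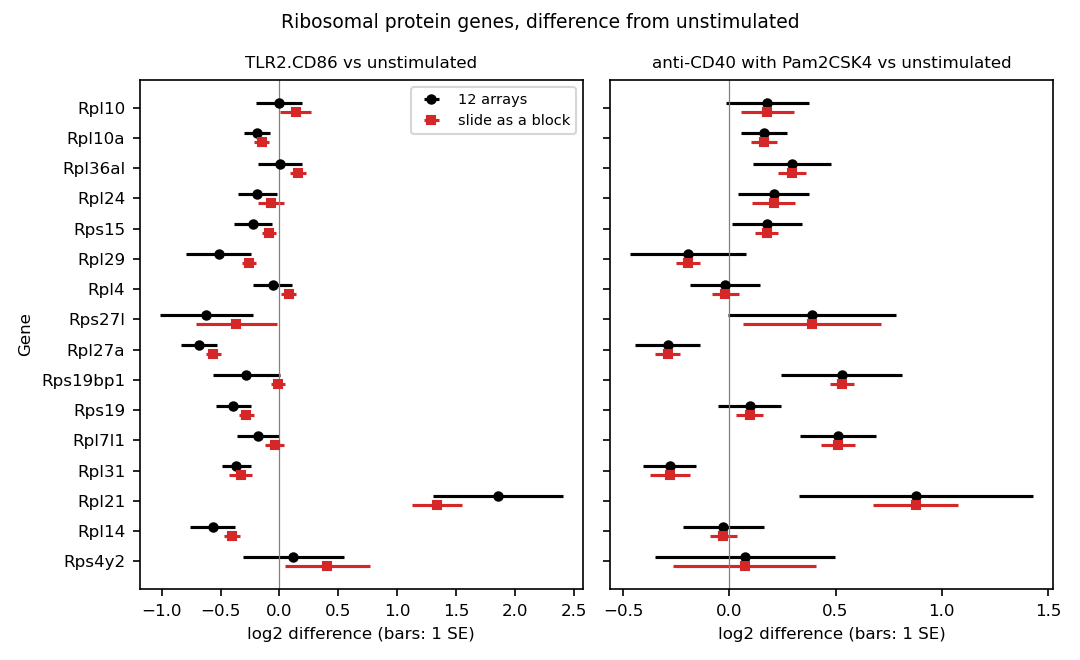
Log2 difference from unstimulated cells for the 16 measured genes, in TLR2.CD86 (left) and anti-CD40 with Pam2CSK4 (right), over the 12 arrays (black circles) and with slide as a block (red squares), with bars of 1 standard error. Rpl27a lies at -0.68 and -0.29, and Rpl21 at 1.85 and 0.88, with wider error bars than its neighbours.

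Several paralogs of ribosomal proteins, which can stand in for their partners in some tissues, could be read. Rpl7l1, a Rpl7 relative that works in ribosome assembly, was 3.93 and 4.00 in unstimulated cells, 4.26 and 3.89 with anti-CD40, and 4.51 and 4.44 with anti-CD40 and Pam2CSK4. The last pair was above all the other arrays. Its difference there was 0.51 (SE 0.18, limma adjusted p = 0.086; 0.0026 with slide as a block, and 0.0026 to 0.94 over the alternatives). A second probe of Rpl7l1 read 0.29 and 0.30 in unstimulated cells and 0.78 and 0.77 in that condition. It read 0.87 and 0.58 with anti-CD40 alone, a pair that overlapped the pair with both agents. Its differences were 0.43 with anti-CD40 (limma adjusted p = 0.10; 0.00095 with slide as a block, up to 0.86 over the alternatives, with a value of -0.14 under median scaling) and 0.48 with both (0.076; 0.00081 with slide, up to 0.94). The testis-linked Rpl10l was not well above background on any array, the muscle paralog Rpl3l was so on 2 arrays and Rpl39l on 3. Of the muscle markers Ckm and Mb were not well above background on any array, and Tnnc2 was on all 12. Rpl36al, the autosomal relative of Rpl36a, was 6.36 and 6.39 in unstimulated cells and 6.69 and 6.65 with anti-CD40 and Pam2CSK4. The partner gene Rpl10 could be measured, while the partners Rpl36a, Rpl39, Rps4x, Rps27, Rpl7 and Rpl22 were saturated on all 12 arrays. No balance between a paralog and its partner can therefore be given from the brightest probes of these saturated partners. Rpl7 and Rpl22 had a dimmer second probe, read below, which was not set against a paralog.

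Rps4y2 and Rpl21 varied with single arrays or with slide. Rps4y2 was 1.38 and 1.46 in unstimulated cells, and 2.35 and 0.73 in the 2 TLR2.CD86 arrays, the highest and the lowest of all 12. Its difference over the 12 arrays was 0.12 (adjusted p = 0.89), and 0.93 on slide 1 (0.034; 0.034 to 0.94 over the alternatives). Rpl21 was 2.34 and 2.10 in unstimulated cells, below all 10 stimulated arrays, which ran from 2.56 to 4.80. It was 3.46 and 4.80 with Pam2CSK4 and 3.58 and 4.57 in TLR2.CD86, with replicate 2, on slide 2, the higher in each. Its differences were 1.90 and 1.85, not called over the 12 arrays (adjusted p = 0.20 and 0.067). With slide as a block they were 1.39 and 1.34 and were called (0.017, within 0.017 to 0.78 over the alternatives, and 0.0048, within 0.0048 to 0.30). The dimmer Rpl21 probe, at -2.13 and -2.74 in unstimulated cells, did not show this, being -2.44 and -2.97 with Pam2CSK4 and -2.88 and -3.13 in TLR2.CD86. Over the 39 tested probes with at least 70% G or C, the median slide difference was 0.25 and the median difference with Pam2CSK4 0.26, against -0.13 and -0.07 over all probes tested. The part of base content in the Rpl21 values was not tested.

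Second probes gave a view of 11 genes whose brightest probe was saturated. Rps15a, a small subunit protein, was the only one of these called over the 12 arrays, 1 of 11 (9.09%) in each of 2 comparisons, below the 16.7% and 18.2% of all probes. Its second probe read -2.56 and -2.93 in unstimulated cells, -1.71 and -2.0 with anti-CD40, and -1.84 and -1.80 with anti-CD40 and Pam2CSK4. The 4 arrays with anti-CD40 were above all 8 others, which ran from -3.12 to -2.56. It was higher by 0.89 with anti-CD40 (SE 0.20, limma adjusted p = 0.023) and by 0.92 with anti-CD40 and Pam2CSK4 (SE 0.20, 0.016). Both calls were kept with slide as a block (0.013 and 0.0089) and lost under median and quantile scaling and with no filter on dim probes. The first was also lost with normexp correction and on leaving out any of its 4 arrays, and the second on leaving out unstimulated replicate 2 or either stimulated array. Over the alternatives the adjusted p ran from 0.013 to 0.65 for the first and from 0.0089 to 0.69 for the second. The saturated Rps15a probe cannot show whether the main message moved with it, and which transcript the dim probe reads was not tested. With slide as a block 1 of the 11 second probes was called with Pam2CSK4 (9.09%, against 10.8% of all probes), 2 each with anti-CD86, TLR2.CD86 and anti-CD40 (18.2%, against 28.3%, 34.9% and 37.1%), and 6 with anti-CD40 and Pam2CSK4 (54.5%, against 47.4%). Among the brighter second probes, Rpl7 was higher in TLR2.CD86 (0.43), anti-CD86 (0.32), anti-CD40 with Pam2CSK4 (0.30) and Pam2CSK4 (0.24) with slide as a block, and was called in none over the 12 arrays, where median scaling turned the Pam2CSK4 and TLR2.CD86 values to -0.10 and -0.0049. Rpl7 levels were 5.58 and 5.59 in unstimulated cells and 6.03 and 5.71 in TLR2.CD86. Rpl35a (-0.28 in TLR2.CD86), Rpl23 (-0.35 with anti-CD86), Rps3 (-0.48 with anti-CD40) and Rpl22 (-0.21 with anti-CD40 and Pam2CSK4) were lower in that fit, and Rpl7a (0.30) and Rpl6 (0.28) were higher with anti-CD40 and Pam2CSK4. Another unsaturated Rpl7a probe differed by 0.09 there and was not called in that fit (adjusted p = 0.47). Rps3 with anti-CD40 rested on replicate 2, at 5.79, against 6.63 in replicate 1 and 6.92 in both unstimulated arrays.

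**Figure D4:**
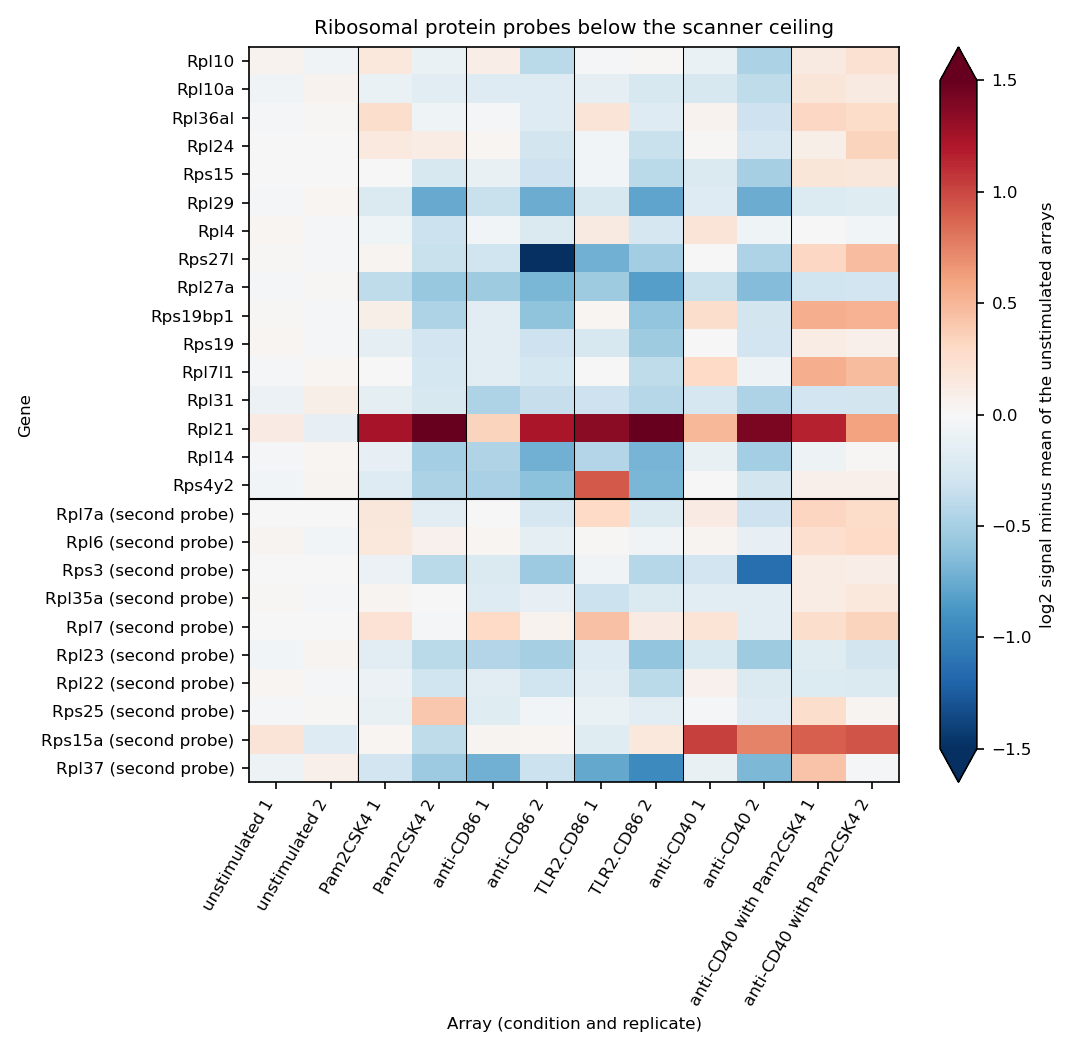
Log2 signal minus the mean of the unstimulated arrays for the 16 measured genes (above the line) and 10 of the second probes (below it), with 1 column per array and colours clipped at 1.5 in either direction. Replicate 2 columns of Pam2CSK4, anti-CD86, TLR2.CD86 and anti-CD40, which lie on slide 2, are bluer than replicate 1 for most genes, whereas Rpl21 is redder.

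Whether Pam2CSK4 changed the response to either antibody was tested as an interaction. For anti-CD86, 0 of the 16 genes were called in either fit, with 0 at an unadjusted p under 0.05 over the 12 arrays, against 0.019% and 0.234% of all probes. For anti-CD40, 0 were called over the 12 arrays, with 4 at an unadjusted p under 0.05, against 1.15%, and 3 (18.8%) with slide as a block, against 8.41% (4.92% as higher). These were Rpl10a (0.53), Rpl27a (0.44) and Rps15 (0.39), each higher with both agents than the single agents add up to. The 3 largest and 3 smallest interactions with anti-CD86 over the 12 arrays were those of Rps4y2 (1.00), Rps27l (0.53), Rpl29 (0.51), Rpl21 (-0.84), Rpl24 (-0.19) and Rpl36al (below 0.01 in size). With anti-CD40 they were Rps27l (0.78), Rpl29 (0.76), Rps19bp1 (0.72), Rpl21 (-1.98), Rpl4 (0.10) and Rpl24 (0.20). The 16 interactions with anti-CD40 ran from -1.98 to 0.78 over the 12 arrays and from -0.95 to 0.53 with slide as a block. Their median was 0.54 and 0.21 in these fits, against 0.24 and 0.09 over the 15841 genes. With anti-CD86 the range was -0.84 to 1.00 and -0.32 to 0.71. The medians there were 0.19 and 0.06, against 0.09 and 0.03. When all 6 conditions were compared at once, 0 of the 16 genes differed over the 12 arrays by limma and 1 by an unmoderated test, against 20.1% of all probes by limma, and 10 (62.5%) did with slide as a block, against 59.9%.

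Genes whose products build ribosomes were mostly higher with anti-CD40. Of 43 measured genes of ribosome assembly, 24 were higher (55.8%, against 6.15% of all probes) and 0 lower with anti-CD40. With anti-CD40 and Pam2CSK4 29 were higher (67.4%, against 8.52%) and 1 lower, and the median differences were 0.72 and 0.93. The medians of the 16 members, which were taken by name and include Rps19bp1 and Rpl7l1, were -0.19 and 0.17 in these comparisons. The difference between the lists was not tested. The -0.19 was -0.01 with slide as a block, -0.07 under quantile scaling, -0.76 under median scaling, -0.01 without anti-CD40 replicate 2 and -0.34 without replicate 1. Nolc1, a nucleolar chaperone of small nucleolar particles, was 3.44 and 3.46 in unstimulated cells, 5.15 and 4.77 with anti-CD40, and 5.53 and 5.52 with anti-CD40 and Pam2CSK4, differences of 1.51 and 2.07 (limma adjusted p = 0.0046 and 0.00066). Rrp1b, a nucleolar protein, was -0.84 and -0.74, then 0.74 and 0.24, then 1.57 and 1.58 in the same order. With anti-CD86 2 assembly genes (4.65%, against 0.946% of all probes) were higher, and in TLR2.CD86 3 were (6.98%, against 3.39%). Rrp12 and Mybbp1a were called in both (1.00 and 0.69, then 0.94 and 0.74), and with Pam2CSK4 alone 0 assembly genes were called. The calls for these genes in anti-CD86 and TLR2.CD86 were lost under median scaling and on leaving out either unstimulated array. Under median scaling, which moves the median of all probes with anti-CD40 from -0.01 to -0.58, the counts fell to 0 for anti-CD40 and to 2 for anti-CD40 with Pam2CSK4, with list medians of 0.16 and 0.82. Leaving out unstimulated replicate 1 or 2 left 6 and 4 assembly genes higher with anti-CD40, and leaving out any array of its comparison left 19 with anti-CD40 and Pam2CSK4.

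Translation factors and the mitochondrial ribosome were read in the same way. Of 20 listed translation factors and other TOP messages, 11 were saturated on some array, Eef1a1, Pabpc1 and Tpt1 among them on all 12. Of the 8 measured, 1 (12.5%) was lower in TLR2.CD86 (Eif4a2, an RNA helicase, -0.57) and 1 with anti-CD86 (Eif3e, an initiation factor subunit, -0.52). The shares of all probes called lower were 7.24% and 1.19%. The list medians were -0.45 and -0.41. With slide as a block 6 (75%) and 4 (50%) were lower, against 20.4% and 15.5% of all probes. The mitochondrial ribosomal proteins, which serve the separate ribosome of that organelle, could be measured for 74 of 75 genes. In TLR2.CD86 14 were lower (18.9%, against 7.24% of all probes) and 0 higher, with anti-CD40 16 were lower (21.6%, against 10.6%) and 2 higher, and with anti-CD40 and Pam2CSK4 6 were lower and 6 higher (8.11% each, against 9.65% and 8.52%). Their medians were -0.36, -0.31 and -0.09. With slide as a block 41 were lower in TLR2.CD86 (55.4%, against 20.4%), 32 with anti-CD86 (43.2%, against 15.5%), 33 with anti-CD40 (44.6%, against 21.4%) and 29 with anti-CD40 and Pam2CSK4 (39.2%, against 23.7%). The mitochondrial list takes 1 probe per gene, whereas the shares of all probes do not. The 15841 genes with an unsaturated brightest probe are the closer match. Of these 15841 genes, 1721 were lower in TLR2.CD86 and 2432 with anti-CD40 over the 12 arrays. With slide as a block these were 4672 and 4864, with 3359 for anti-CD86 and 5196 for anti-CD40 with Pam2CSK4. In TLR2.CD86 the count of lower mitochondrial ribosomal protein genes was 0 under median scaling, with no filter on dim probes, and on leaving out either unstimulated array or TLR2.CD86 replicate 2, and 2 without replicate 1. With anti-CD40 it was 0 under median scaling and on leaving out either unstimulated array, 1 with no filter on dim probes and without anti-CD40 replicate 2, and 28 without replicate 1. Among the regulators, Myc was 4.95 and 5.03 in unstimulated cells, 6.78 and 6.39 with anti-CD40, and 7.28 and 7.27 with anti-CD40 and Pam2CSK4, a rise of 1.60 and 2.29. Myc was also above both unstimulated arrays with Pam2CSK4 alone (5.96 and 5.68) and in TLR2.CD86 (5.64 and 5.28). With anti-CD86 it was below them (4.72 and 4.56). Mtor was higher by 0.75 with anti-CD86, 0.72 in TLR2.CD86, 0.90 with anti-CD40 and 1.03 with anti-CD40 and Pam2CSK4. Eif4ebp1, a repressor of cap-dependent translation, differed by -0.60 in TLR2.CD86 and -0.70 with anti-CD40, and the kinase Rps6ka5 by -0.50, -0.80 and -0.66 in TLR2.CD86, anti-CD40 and anti-CD40 with Pam2CSK4. The anti-CD40 calls for Myc, Mtor, Eif4ebp1 and Rps6ka5 were lost under median scaling. Leaving out unstimulated replicate 1 also ended those of Mtor, Eif4ebp1 and Rps6ka5, and the TLR2.CD86 calls of these genes and the anti-CD86 call of Mtor were lost on leaving out any array of their comparison.

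**Figure D5:**
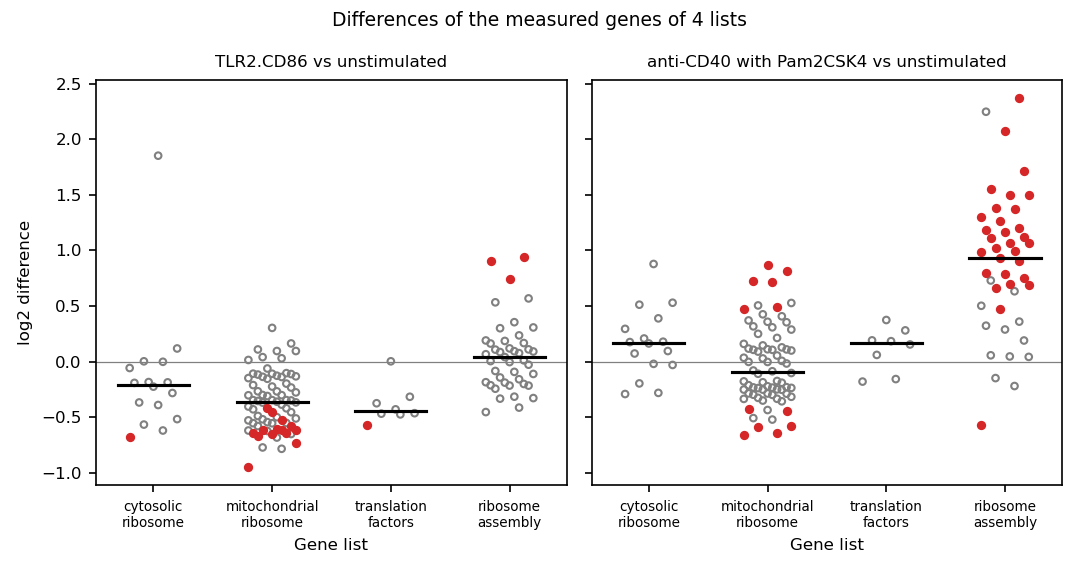
Log2 difference from unstimulated cells in TLR2.CD86 (left) and anti-CD40 with Pam2CSK4 (right) for each measured gene of 4 lists, with red points for genes with an adjusted p under 0.05 over the 12 arrays, grey circles for the others and a line at the median. Ribosome assembly genes have medians of 0.04 and 0.93. The genes taken by name as cytosolic ribosomal proteins, Rps19bp1 and Rpl7l1 among them, have medians of -0.21 and 0.17.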

How the data were processed

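RNA from 12 samples was hybridised to single-colour Agilent mouse arrays, 2 per condition, and scanned by the authors with Agilent Feature Extraction. The deposited processed signal is an intensity per spot, background-corrected by that software; saturation, outlier and well-above-background flags were read from the same files. The authors' series table holds log2 values, which equalled the log2 processed signal minus a constant per array near its 75th percentile, and served as an alternative. Control spots and flagged outliers were left out, and spots of a probe were averaged. Values are log2 processed signal minus the array's 75th percentile. Of 61307 probes, 31596 were tested, being well above background on every array of at least 1 condition and measured on all arrays. Each gene was taken by its brightest probe over the 12 arrays, and a gene with a brightest probe saturated on any array was set apart.

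The arrays were fitted together in limma (version 3.58.1, run under R 4.3.3), every condition having its own mean. A probe was called where its Benjamini-Hochberg adjusted p, taken across the 31596 probes, was under 0.05. Slide, which matched scan, was added as a block in an alternative fit, and slide 1 was also fitted alone. The script was tested on simulated data. The members and lists were chosen with earlier results of these data known, and no list was tested as a set. With 2 arrays per condition, p-values measure the spread between these samples, and the number of arrays limits the precision. Named genes were the 5 highest and 5 lowest differences per comparison, 3 per direction for interactions, called members, and a fixed set of paralogs and partners. Lists were the ribosomal proteins with other names, translation factors and TOP messages, ribosome assembly, mitochondrial ribosomal proteins, and S6 kinases with TOP regulators. RefSeq sequences and gene positions are on GRCm38.p6; no array coordinates were used. A few items of these data are not reported here.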

Additional observations from a re-analysis of the deposited data

Results flagged for a closer look

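Gar1, a protein of the small nucleolar particles that modify ribosomal RNA, stood out because its response to anti-CD40 differed with and without Pam2CSK4 by a test of the difference itself. It was 1.51 and 1.63 in unstimulated cells, 2.75 and 2.60 with anti-CD40, and 0.99 and 1.01 with anti-CD40 and Pam2CSK4, where it was the 1 assembly gene called lower. The interaction was -1.59 on the log2 scale (limma adjusted p = 0.0058, 0.00078 to 0.37 over the alternatives), and it was not called under median scaling or on slide 1 alone.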

How the results depend on the processing

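The counts of called members over the 16 genes moved most with slide. With slide as a block they were 2 for Pam2CSK4, 4 for anti-CD86, 6 for TLR2.CD86, 6 for anti-CD40, 8 for anti-CD40 with Pam2CSK4, 3 for the interaction of Pam2CSK4 and anti-CD40, and 10 for all conditions at once. The shares of all probes called in that fit were 10.8%, 28.3%, 34.9%, 37.1%, 47.4%, 8.41% and 59.9% in the same order. With saturated genes counted as well, chosen after seeing the data, that fit called 2, 4, 6, 6 and 67 members in the 5 comparisons with unstimulated cells and 3 in the anti-CD40 interaction, and the 67 include genes at the scanner ceiling. On slide 1 alone the counts were 4 for TLR2.CD86, 1 for anti-CD40, 5 for anti-CD40 with Pam2CSK4 and 5 for all conditions. Correlations of same-numbered deviations ran from -0.14 to 0.81 and were above 0.6 only between conditions whose numbers coincide with slide. Pairing by replicate number and slide cannot be told apart there. Between unstimulated cells and anti-CD40 with Pam2CSK4, all on slide 1, the correlation was 0.14. The replicate block gave 2 for anti-CD86, 4 for TLR2.CD86, 2 for anti-CD40, 1 for anti-CD40 with Pam2CSK4 and 5 for all conditions. Quantile scaling gave 1 for anti-CD86, anti-CD40 and anti-CD40 with Pam2CSK4 and 2 for all conditions. Normexp correction gave 1 for anti-CD86, 2 for TLR2.CD86, 2 for anti-CD40, and 1 each for anti-CD40 with Pam2CSK4 and all conditions. The trend and robust prior gave 1 for anti-CD86, 1 for anti-CD40 and 2 for all conditions. Keeping only probes well above background on all 12 arrays gave 2 for TLR2.CD86 and 1 for anti-CD40. TLR2.CD86 gave 0 under median scaling and with no filter on dim probes. The brightest unsaturated probe per gene, and the mean over unsaturated probes, gave 1 each for anti-CD40, anti-CD40 with Pam2CSK4 and all conditions, and an unmoderated test of all conditions gave 1. Leaving out 1 array gave 0 for TLR2.CD86 in every case, 0 to 2 for anti-CD40 (2 without anti-CD40 replicate 1), and 0 to 1 for all conditions (1 without anti-CD86 replicate 1, TLR2.CD86 replicate 2 or anti-CD40 replicate 1). Apart from slide as a block, no share of all probes is given for these settings. The counts under them are not read as results about the members. The causes of these shifts were not tested.

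The same alternatives were applied to the other gene lists after seeing the data. Of the gene values with a difference of at least 0.3 or a call, 60 in number, 785 of their recomputed values kept direction and side of the threshold, 78 passed it newly, 20 lost it and 9 turned direction. Rps19bp1 with anti-CD40, at zero within its error, turned to 0.13 under quantile scaling, 0.26 with slide as a block and on slide 1, 0.13 as a mean over probes, and -0.27 to 0.26 on leaving out 1 array (0.0076 without unstimulated replicate 1). The second probe of Rpl7 turned to -0.10 under median scaling and ran from -0.021 without Pam2CSK4 replicate 1 to 0.21 without replicate 2 in the Pam2CSK4 comparison, and to -0.0049 under median scaling in TLR2.CD86. The same alternatives were applied to the further probes of Rpl29, Rpl7a and Rpl7l1 after seeing the data, where Rpl7l1 with anti-CD40 turned to -0.14 under median scaling, and Rpl7a with anti-CD40 and Pam2CSK4, at 0.09, turned to -0.023 under median scaling and ran from -0.000749 without replicate 2 of that condition to 0.17 without replicate 1. Saturation set the limit for the 51 genes with no tested probe below saturation on all arrays, and for Rpl12, whose second probe was left out. No fold change is given for these genes under any alternative.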
